A study of Mus musculus with 12 samples.

Results

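The genes described here mark the glutamatergic projection neurons of the cerebral cortex and the layers in which they sit. They were 34 named genes, taken from the expression table by exact gene name with all rows of a name summed, of 55678 gene names in all. By role they were split into 6 genes of glutamatergic neurons in general, 11 genes of the upper layers and layer 4, and 17 genes of the deep layers. The split follows textbook use of the genes and was made for this description. RNA came from a punch of 1.5 mm diameter of the medial prefrontal cortex (mPFC), between 2.0 and 1.5 mm anterior to bregma, of mice aged 9 to 10 weeks. The strains were C57BL/6JmsSlc, called B6 here, and BALB/cCrSlc, called BALB/c. In each strain, 3 mice underwent chronic restraint stress (CRS), held in a restrainer for 6 h per day over 21 days, and 3 control mice were handled without restraint. The 12 libraries carry separate animal numbers within their groups, and the mice had been through behavioural tests before tissue was taken. The sex of the mice, their litters and the sequencing batch are not given in the sources used here. Both strains are inbred, so a strain difference is a difference between these lines as a whole and not the effect of a known allele.

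Cortical projection neurons release glutamate, which vesicular glutamate transporters load into synaptic vesicles, and basic helix-loop-helix factors of the Neurod family act in their differentiation. Upper layer neurons project mainly within the cortex and to the opposite hemisphere, layer 4 neurons receive thalamic input in sensory areas, and rodent mPFC has little or no layer 4. Deep layer neurons send axons to the striatum, thalamus, brainstem and spinal cord. In bulk tissue, fewer cells of a type and less RNA per cell cannot be told apart.

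Levels are in TPM, a share of all transcripts corrected for their length, so levels of different genes can be set side by side. Differences are on the log2(TPM + 1) scale, with limma's standard error (SE), and are BALB/c minus B6 or CRS minus control. Calling a gene took an adjusted p under 0.05 (Benjamini-Hochberg) over the 16423 genes that reached 1 TPM in 3 or more of the libraries. All 34 genes met this minimum. Scnn1a, with no BALB/c library at 1 TPM, and Oprk1, with 2, met it through B6, so for these genes the minimum and a strain difference are not independent. With no minimum both were still called in the average over treatments described below.

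Between libraries, genes with at least 1 TPM numbered 14805 to 15542 and mitochondrial RNA made up 17.4% to 23.9% of TPM. The 18S ribosomal RNA gene took 3.97% of TPM in BALB/c CRS animal 12 and at most 0.169% in any other library. Markers of neighbouring tissue differed with strain. The 12 striatal medium spiny neuron markers summed to between 239 and 3056 TPM in B6 controls, 1077 and 2516 TPM in B6 CRS mice, 139 and 429 TPM in BALB/c controls, and 157 and 209 TPM in BALB/c CRS mice. None of the 12 stood at 0 throughout a group, and Gpr6 and Six3 stayed under 1 TPM in the BALB/c CRS group. All 12 were called lower in BALB/c over both treatments (median log2 difference -2.34). The 10 myelin markers, also all called lower (median -2.25), summed to between 2598 and 9961 TPM in B6 controls, 2815 and 8072 TPM in B6 CRS mice, 491 and 3168 TPM in BALB/c controls, and 556 and 1493 TPM in BALB/c CRS mice. Smaller numbers of the other markers were called in the same comparison: 3 of 6 astrocyte genes lower, 3 of 8 interneuron genes lower and 1 higher (Vip), 2 of 6 microglial genes lower, 2 of 4 choroid plexus genes tested lower and 1 of 3 thalamic genes tested lower, with neither olfactory bulb gene tested being called. Over all genes tested, 14.3% were called lower in this comparison and 4.05% higher. Large differences were those of Adora2a, Penk and Gpr6 among striatal markers (-3.16 to -2.67) and of Mal, Mobp, Opalin and Mag among myelin markers (-2.48 to -2.31). Among those called elsewhere were Aqp4, Aldoc and Gja1 of astrocytes, C1qa of microglia, Clic6 and Folr1 of choroid plexus and Tcf7l2 of thalamus. The 3 lower genes of the interneuron list were Slc32a1, Gad2 and Gad1, which are genes of GABAergic neurons in general. Differences of all these genes ran from -1.18 to -0.28. The remaining genes of the interneuron list, Pvalb, Sst, Lamp5 and Npy, were not called.

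Slc17a7, which encodes the main vesicular glutamate transporter of the cortex (VGLUT1), had the highest mean level of the 34 genes over all libraries, 739 TPM ± 197 (SD, n = 12). Pcp4, a calmodulin-binding peptide of deep layer neurons, was next at 634 TPM ± 245, followed by Mef2c, a transcription factor of maturing excitatory neurons, at 207 TPM ± 67.8. Within B6 the order of the first 2 was the reverse, with 798 TPM ± 209.6 for Pcp4 and 671 TPM ± 266 for Slc17a7, and their ranges overlapped. The range of Pcp4 lay wholly above that of Mef2c, with means 3.07-fold apart. No other pair of neighbours in the order of mean levels had ranges over the 12 libraries that did not overlap. At the low end stood Oprk1 (3.02 TPM ± 2.48), Rspo1 (2.57 TPM ± 1.41) and Scnn1a (0.889 TPM ± 0.731). The lowest Slc17a7 values, 390.4 and 427 TPM, were those of B6 CRS animal 12 and B6 control animal 2, the libraries with the highest striatal sums. Slc17a6, the transporter VGLUT2 that prevails in thalamus and brainstem, averaged 5.54 TPM ± 1.70.

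**Figure D1:**
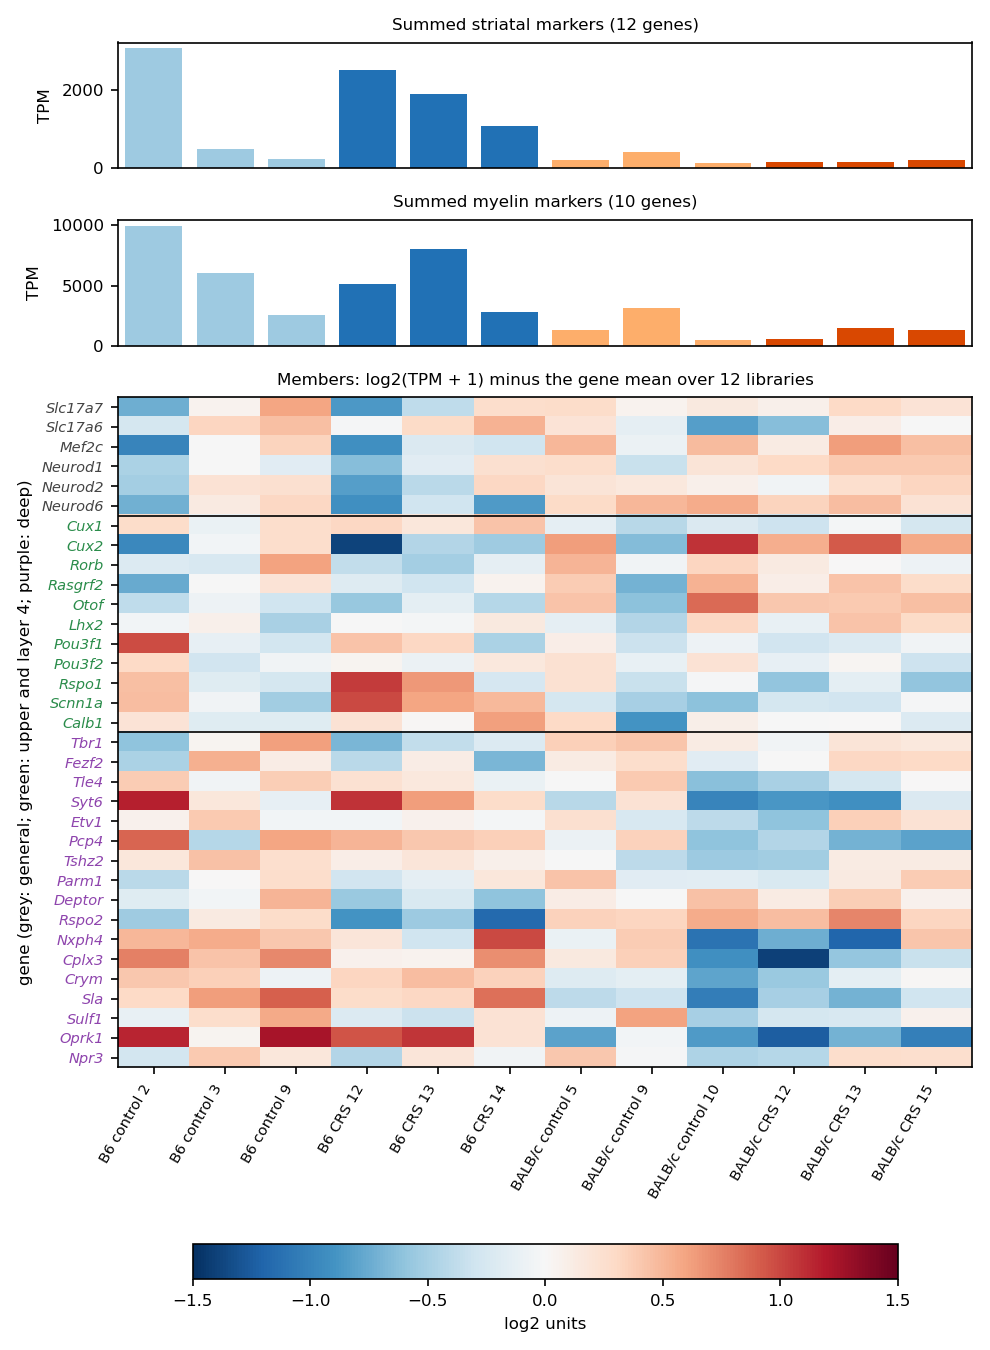
Each column is a library and each row of the colour map 1 of the 34 genes, shown as log2(TPM + 1) minus that gene's mean over the 12 libraries; the bars above give the summed TPM of the striatal and myelin markers. B6 control animal 2 and B6 CRS animal 12, with the highest striatal sums (3056 and 2516 TPM), are low for most general glutamatergic genes, and BALB/c control animal 9 is low for most upper layer genes.

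The strains differed in 12 of the 34 genes when both treatments were averaged (6 libraries against 6): 4 were higher and 8 lower in BALB/c. That is 35.3% of the genes, against 18.4% of all genes tested. In the higher direction the share was 11.8%, against 4.05% of all genes tested, and in the lower direction 23.5%, against 14.3%. The median difference of the 34 genes, -0.08, was that of all genes tested, -0.08. The genes that were higher were the general factors Neurod6 and Mef2c, the upper layer gene Cux2 and the deep layer gene Rspo2. Those that were lower were the upper layer and layer 4 genes Cux1 and Scnn1a and the deep layer genes Syt6, Pcp4, Cplx3, Crym, Sla and Oprk1. By role, the median difference was 0.38 for the general genes, -0.02 for the upper layer genes and -0.33 for the deep layer genes. With another scaling of the libraries (median of ratios), 8 genes were called higher and 8 lower, 11 of them shared with the first count. Of all genes 19.5% were called in either direction, and their median difference was 0.0037. Their shares by direction were not counted for this scaling, so the 8 higher and 8 lower genes have no such background. Neurod1, Otof, Tbr1 and Deptor joined the higher genes, Tshz2 joined the lower ones, and Pcp4 was no longer called.

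**Figure D2:**
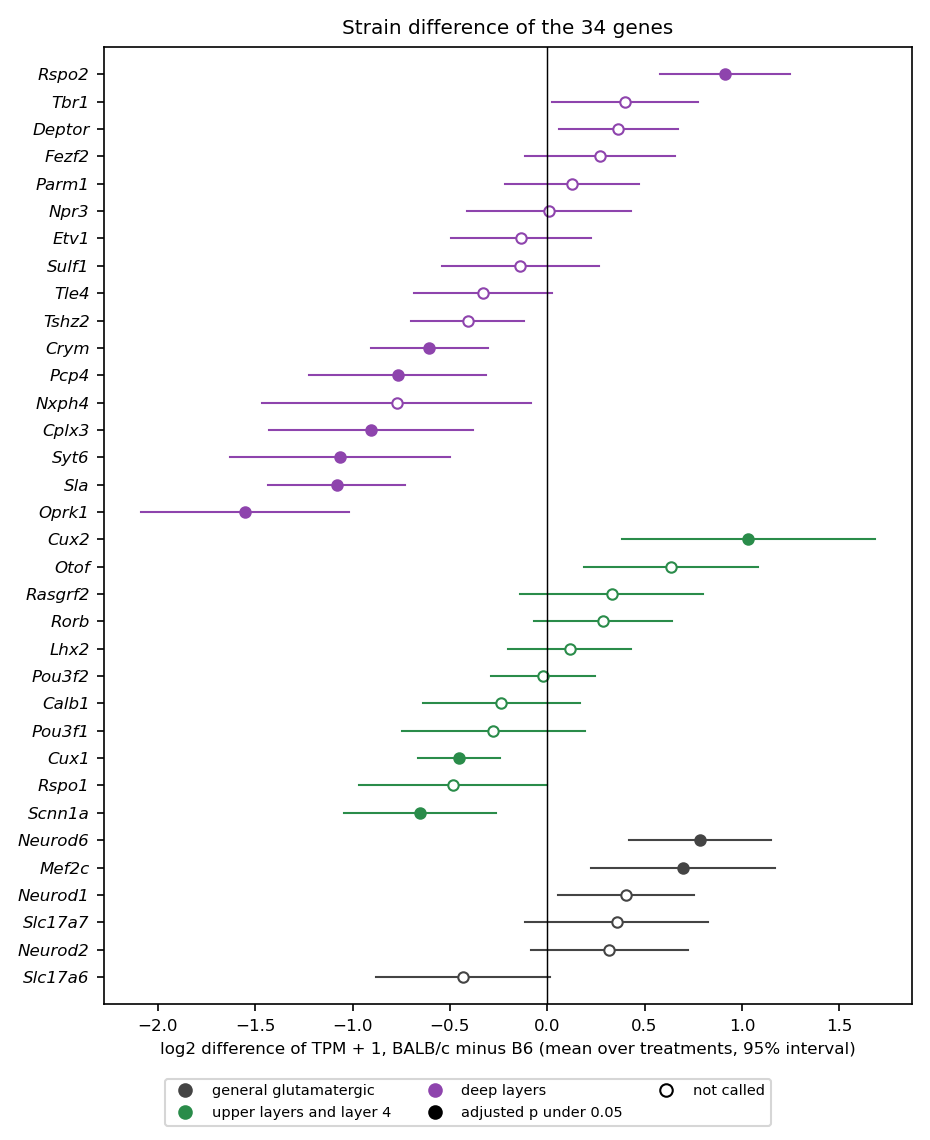
Points give the log2 difference of TPM + 1 between the strains (BALB/c minus B6, averaged over treatments) for the 34 genes, bars the 95% interval from limma, colours the role, and filled points the 12 called genes. Of the 17 deep layer genes 6 are called on the lower side, down to -1.55 for Oprk1, and only Rspo2 on the higher side. The shares are 35.3% lower and 5.88% higher, against 14.3% and 4.05% of all genes tested.

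Few calls were left once marker levels entered the fit. With the mean striatal marker level as a covariate, 1 of the 34 genes was called in the average over treatments (Sla, -1.35, SE 0.26, adjusted p = 0.0129, limma), against 3.09% of all genes. With the myelin marker level as a covariate none was called, against 2.27% of all genes. Strain and tissue makeup move together in these 12 libraries and cannot be told apart. Without B6 control animal 2 and B6 CRS animal 12, an alternative chosen after the data were seen, 6 genes were called (Neurod6, Rspo2, Cux1, Crym, Sla and Oprk1), against 9.93% of all genes. Without BALB/c CRS animal 12, the library with the high 18S share, 8 genes were called, 2 higher and 6 lower. Of all genes 13.8% were called in either direction, and shares by direction were not counted for this fit.

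Among the 6 general glutamatergic genes, 2 were called, both higher in BALB/c (33.3%, against 4.05% of all genes tested). In every such account below, values run in the order of animal numbers: 2, 3 and 9 for B6 controls, 12, 13 and 14 for B6 CRS, 5, 9 and 10 for BALB/c controls, and 12, 13 and 15 for BALB/c CRS. Neurod6 (chr6:55677822-55681263, minus strand), a helix-loop-helix factor kept on in adult pyramidal neurons, stood at 49.2, 89.6 and 101 TPM in B6 controls, 42.9, 66.6 and 44.9 TPM in B6 CRS mice, 99.8, 116 and 121 TPM in BALB/c controls, and 103, 113 and 95.4 TPM in BALB/c CRS mice. Only B6 control animal 9 reached into the BALB/c range. The B6 mean was 65.8 TPM ± 24.8 (SD, n = 6) and the BALB/c mean 108 TPM ± 10.0 (SD, n = 6), which is 0.78 higher on the log2 scale (SE 0.17, adjusted p = 0.00794, limma). The call was kept whichever single library was left out.

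Mef2c (chr13:83504034-83667080, plus strand) gave 97.8, 193 and 246 TPM in B6 controls, 103, 168 and 158 TPM in B6 CRS mice, 276, 183 and 271 TPM in BALB/c controls, and 213, 303 and 267 TPM in BALB/c CRS mice. The lowest values were those of B6 control animal 2 and B6 CRS animal 12, and the strains overlapped. The strain difference of 0.70 (SE 0.22, adjusted p = 0.0425, limma) was lost in 9 of the 12 fits that left out a library, with adjusted p up to 0.102 without B6 CRS animal 12; it was kept only without B6 control 9, B6 CRS 13 or BALB/c control 9. Slc17a7 did not pass: its levels were 427, 735 and 1074 TPM in B6 controls, 390.4, 545 and 854 TPM in B6 CRS mice, 863, 740.3 and 789 TPM in BALB/c controls, and 749, 875 and 821 TPM in BALB/c CRS mice. The BALB/c values lay inside the B6 range, and the difference was 0.36 (SE 0.22, adjusted p = 0.283). Its SD on the log2 scale was 0.577 over the B6 libraries and 0.102 over the BALB/c libraries. The other 3, Neurod1, Neurod2 and Slc17a6, had differences from -0.43 to 0.40 with adjusted p of 0.105 or more.

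Of the 11 upper layer and layer 4 genes, Cux2 was called higher and Cux1 and Scnn1a lower. The shares were 9.09% higher and 18.2% lower, against 4.05% and 14.3% of all genes tested. Cux1 and Cux2 are related homeodomain factors of upper layer neurons, and here they lay on opposite sides. Cux2 (chr5:121856366-122050102, minus strand) stood at 12.7, 25.1 and 31.2 TPM in B6 controls, 9.21, 18.8 and 17.5 TPM in B6 CRS mice, 40.2, 16.1 and 55.9 TPM in BALB/c controls, and 38.2, 49.6 and 38.8 TPM in BALB/c CRS mice. All BALB/c libraries but control animal 9 lay above every B6 library. The difference was 1.03 (SE 0.30, adjusted p = 0.0326, limma). It lost its call without any 1 of B6 control 2, B6 CRS 12, BALB/c control 5, BALB/c control 10 or the 3 BALB/c CRS libraries, with adjusted p up to 0.0801.

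Cux1 (chr5:136248135-136567490, minus strand), which outside the cortex is expressed in many cell types, stood at 30.6, 23.5 and 30.5 TPM in B6 controls, 31.2, 28.4 and 34.1 TPM in B6 CRS mice, 22.9, 18.6 and 21.5 TPM in BALB/c controls, and 20.1, 24.6 and 20.7 TPM in BALB/c CRS mice. The strains overlapped only through B6 control animal 3 and BALB/c CRS animal 13. The difference of -0.45 (SE 0.10, adjusted p = 0.0078, limma) was kept whichever library was left out. Exons of Cux1 overlap those of Gm16599 on the other strand, and whether counting used strand is not given in the sources used here. Scnn1a (chr6:125320659-125344943, plus strand), an epithelial sodium channel subunit used as a mark of layer 4, stood at 1.45, 0.717 and 0.242 TPM in B6 controls, 2.52, 1.67 and 1.49 TPM in B6 CRS mice, 0.477, 0.254 and 0.162 TPM in BALB/c controls, and 0.475, 0.454 and 0.752 TPM in BALB/c CRS mice. These are levels near the minimum for testing. The difference of -0.65 (SE 0.18, adjusted p = 0.0254, limma) was lost without B6 control 2, B6 CRS 12, BALB/c control 10, BALB/c CRS 12 or BALB/c CRS 13, with adjusted p up to 0.0678. Otof, which encodes a calcium sensor of vesicle release and marks upper layers, came next at 0.64 (SE 0.20, adjusted p = 0.05, limma) and was not called. B6 libraries averaged 2.82 TPM ± 0.485 and BALB/c libraries 5.14 TPM ± 1.74 (SD, n = 6 each). The other 7 upper layer genes, from Rspo1 at -0.48 to Rasgrf2 at 0.33, had adjusted p of 0.156 or more.

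Of the 17 deep layer genes, 6 were called lower in BALB/c and 1 higher. The shares were 35.3% lower and 5.88% higher, against 14.3% and 4.05% of all genes tested. Sla (chr15:66780819-66831829, minus strand), a Src-like adaptor protein, stood at 10.8, 13.9 and 16.9 TPM in B6 controls, 10.6, 10.9 and 16.1 TPM in B6 CRS mice, 6.33, 6.73 and 3.68 TPM in BALB/c controls, and 5.80, 4.87 and 6.82 TPM in BALB/c CRS mice. No BALB/c library reached the B6 range. B6 libraries had a mean of 13.2 TPM ± 2.82 and BALB/c libraries one of 5.71 TPM ± 1.23 (SD, n = 6), a difference of -1.08 (SE 0.16, adjusted p = 0.000884, limma).

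Oprk1 (chr1:5588466-5606131, plus strand), the kappa opioid receptor to which dynorphin binds, stood at 6.41, 2.45 and 6.88 TPM in B6 controls, 5.43, 6.05 and 2.88 TPM in B6 CRS mice, 0.917, 2.26 and 0.850 TPM in BALB/c controls, and 0.423, 1.05 and 0.647 TPM in BALB/c CRS mice. The strains did not overlap, though BALB/c control animal 9 came close to B6 control animal 3. The B6 mean was 4.90 times the BALB/c mean, and the difference was -1.55 (SE 0.24, adjusted p = 0.00126, limma). Rspo2 (chr15:43020794-43170826, minus strand), a secreted amplifier of Wnt signalling, went the other way: 10.6, 17.5 and 19.3 TPM in B6 controls, 7.99, 10.5 and 6.46 TPM in B6 CRS mice, 20.3, 20.0 and 23.8 TPM in BALB/c controls, and 22.1, 26.9 and 20.0 TPM in BALB/c CRS mice. Its strains did not overlap either, with a difference of 0.91 (SE 0.15, adjusted p = 0.00191, limma). These 3 genes, whose 6 libraries of each strain did not overlap, are 8.82% of the 34, and 8.95% of all genes tested had strains that did not overlap. The 2 shares are close.

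Crym (chr7:120186380-120202111, minus strand) encodes a thyroid hormone-binding protein of corticofugal neurons. It stood at 217, 210.0 and 155 TPM in B6 controls, 206, 227 and 209 TPM in B6 CRS mice, 144, 148 and 94.1 TPM in BALB/c controls, and 112, 148 and 166 TPM in BALB/c CRS mice. Only B6 control animal 9 fell into the BALB/c range, and the difference was -0.61 (SE 0.14, adjusted p = 0.0107, limma). Syt6 (chr3:103575231-103645569, plus strand), a synaptotagmin of layer 6 neurons, stood at 32.6, 15.9 and 12.7 TPM in B6 controls, 30.8, 22.1 and 17.1 TPM in B6 CRS mice, 10.3, 16.4 and 6.55 TPM in BALB/c controls, and 7.22, 6.92 and 11.9 TPM in BALB/c CRS mice. The highest values were those of B6 control 2 and B6 CRS 12, the libraries with the highest striatal sums. Its difference of -1.06 (SE 0.26, adjusted p = 0.0151, limma) passed without any single library and failed without both of those; an exon of Syt6 overlaps Atg4a-ps on the other strand.

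Pcp4 (chr16:96467606-96525793, plus strand) is expressed in striatal neurons as well as in deep layers. It stood at 1079, 439 and 887 TPM in B6 controls, 840.0, 784 and 755 TPM in B6 CRS mice, 554, 749 and 387 TPM in BALB/c controls, and 436, 359 and 339 TPM in BALB/c CRS mice. The strains overlapped among controls and were apart after CRS. The difference of -0.77 (SE 0.21, adjusted p = 0.0242, limma) was lost without B6 control 2, B6 CRS 12, BALB/c control 10 or BALB/c CRS 15, with adjusted p up to 0.0619. Its exons overlap those of Igsf5 on the same strand. Cplx3 (chr9:57599992-57606281, minus strand), a complexin of subplate-derived layer 6b neurons that regulates vesicle fusion, stood at 18.6, 14.6 and 18.1 TPM in B6 controls, 11.1, 11.05 and 17.8 TPM in B6 CRS mice, 11.9, 13.9 and 5.13 TPM in BALB/c controls, and 3.39, 6.79 and 8.22 TPM in BALB/c CRS mice. Its lowest value was that of BALB/c CRS animal 12, the library with the high 18S share. The difference of -0.90 (SE 0.24, adjusted p = 0.022, limma) was -0.75 with an adjusted p of 0.0522 without that library.

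The other 10 deep layer genes were not called. Nearest to a call were Tshz2, a zinc finger factor (-0.41, SE 0.13, adjusted p = 0.0525, limma), and Deptor, an inhibitor of mTOR (0.37, SE 0.14, adjusted p = 0.094, limma). Exons of Tshz2 overlap those of A630075F10Rik and Gm26883 on the other strand, and exons of Deptor those of Gm9920, also on the other strand. The layer 6 factor Tbr1 and the subcerebral factor Fezf2 had differences of 0.40 and 0.27, and the layer 6 co-repressor Tle4 one of -0.33, with adjusted p of 0.131 or more. The lowest difference among those not called was that of Nxph4, a neurexophilin of layer 6b (-0.77, SE 0.32, adjusted p = 0.115, limma).

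**Figure D3:**
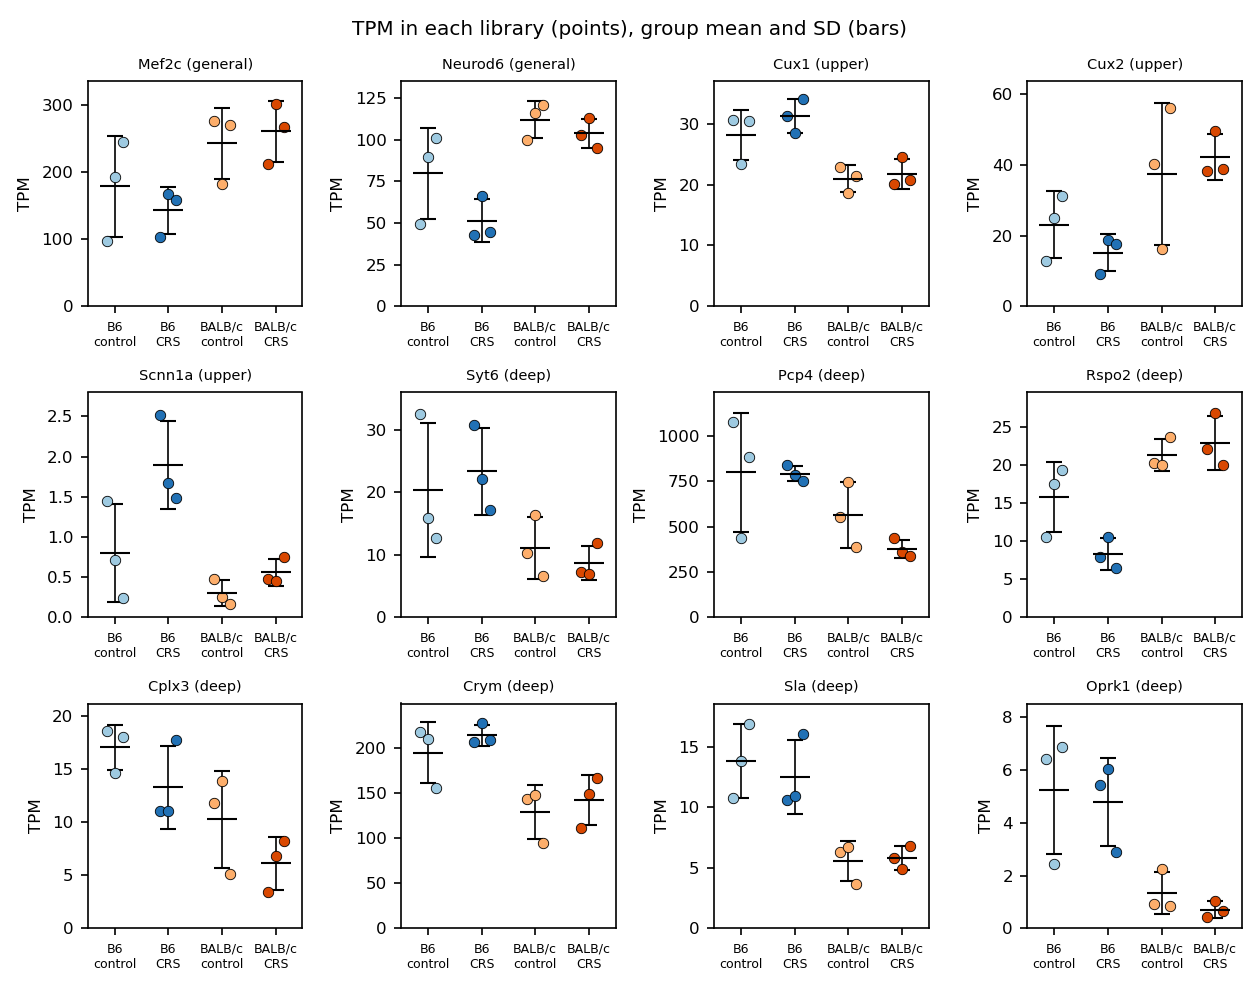
Points give TPM in each of the 3 libraries of a group for the 12 genes called between strains, and bars the group mean and SD. Sla, Oprk1 and Rspo2 are the 3 genes in which no library of one strain enters the range of the other.

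Promoters were read for the called genes with a single start site in the RefSeq table (GRCm38.p6), as windows from 250 bases before to 50 after the start. Neurod6 and Cplx3 are shown because they are called genes of opposite direction. The windows were searched on both strands for the E-boxes CAGATG, a form that Neurod factors bind, and CAGCTG. Capitals mark a match.
Neurod6 (chr6:55681214-55681513, minus strand): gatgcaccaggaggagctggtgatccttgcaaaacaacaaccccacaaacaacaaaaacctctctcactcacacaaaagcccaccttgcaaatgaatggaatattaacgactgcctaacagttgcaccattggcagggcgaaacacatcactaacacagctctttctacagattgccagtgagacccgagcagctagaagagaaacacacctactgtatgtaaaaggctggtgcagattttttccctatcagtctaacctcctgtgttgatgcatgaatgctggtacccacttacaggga
Cplx3 (chr9:57606232-57606531, minus strand): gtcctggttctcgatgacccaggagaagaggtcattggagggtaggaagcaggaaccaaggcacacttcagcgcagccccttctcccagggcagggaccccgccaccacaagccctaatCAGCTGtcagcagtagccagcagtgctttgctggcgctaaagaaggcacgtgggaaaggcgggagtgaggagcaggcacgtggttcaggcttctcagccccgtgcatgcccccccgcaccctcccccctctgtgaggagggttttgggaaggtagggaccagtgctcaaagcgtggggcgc
The Neurod6 window held neither form and the Cplx3 window held CAGCTG. The windows of Cux1 and Pcp4, the other called genes with a single start site and both lower in BALB/c, held neither form. Of the 34 genes, 23 were in the table, with 33 promoters. CAGATG was found in 18.2% of these and in 17.2% of all 32851 promoters, CAGCTG in 15.2% and 16.3%, and either in 33.3% and 30.6%. The shares in the 2 sets were close.

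Among controls alone, 2 of the 34 genes differed between strains, 5.88% against 4.73% of all genes tested, a share near the background. Both were lower in BALB/c, where the background share is 3.37%. They were Sla (-1.19, SE 0.23, adjusted p = 0.0101, limma) and Oprk1 (-1.37, SE 0.35, adjusted p = 0.043, limma). The groups did not overlap in 23.5% of the 34 genes and in 22.9% of all genes tested. Oprk1 lost its call in 9 of the 12 fits that left out a library, with adjusted p up to 0.173 without BALB/c control 10. It was kept only without B6 control 3, B6 CRS 14 or BALB/c control 9. No striatal marker was called among controls (median -1.49), where B6 control animal 2 had 3056 TPM of them and the other 2 B6 controls 505 and 239 TPM. After CRS, 7 genes were called, 20.6% against 7.7% of all genes tested, and groups did not overlap in 55.9% against 29.3%. The 2 higher genes are 5.88% (2.37% of all genes tested) and the 5 lower genes 14.7% (5.33%). Neurod6 (1.02, adjusted p = 0.0238) and Rspo2 (1.37, adjusted p = 0.00244) were higher in BALB/c. Cux1 (-0.50, adjusted p = 0.0451), Syt6 (-1.33, adjusted p = 0.0474), Pcp4 (-1.07, adjusted p = 0.0464), Sla (-0.97, adjusted p = 0.0258) and Oprk1 (-1.73, adjusted p = 0.0113) were lower. In the same comparison 11 of the 12 striatal markers were called lower (median -3.15). With the striatal or the myelin covariate no gene of the 34 was called, against 1.41% and 1.56% of all genes. With median-of-ratios scaling 4 of the 34 were higher and 3 lower, against 8.59% of all genes called in either direction, with no share by direction counted. The count after CRS fell to 1 without B6 CRS 12 (3.32% of all genes) or BALB/c CRS 12 (3.7%), so that 2.94% of the 34 genes were called, below the background. It was 2 without BALB/c CRS 13 (4.08% of all genes) and 3 without B6 CRS 14 (5.48%). It was 4 without B6 CRS 13 (4.52%), BALB/c CRS 15 (4.9%) or BALB/c control 5 (6%), and 11 without B6 control 9 (11.4%). Only Rspo2 kept its call after CRS in all 12 of these fits. The difference between the 2 strain comparisons is the interaction given below, in which none of the 34 genes was called.

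CRS was then compared with control within each strain, the question the design poses most directly. None of the 34 genes was called in B6, in BALB/c or in the average of both. Of all genes tested 0% were called in B6 and 0.00609% in BALB/c and in the average. At an unadjusted p under 0.05 there were 4 of the 34 in B6 (4.82% of all genes tested), 0 in BALB/c (3.03%) and 2 in the average (5.17%).

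In B6, Rspo2 had the lowest p. Its CRS libraries (6.46 to 10.5 TPM) lay just below its controls (10.6 to 19.3 TPM), a difference of -0.83 (95% interval -1.30 to -0.36, unadjusted p = 0.00232, adjusted p = 1, limma). Deptor stood at 4.94, 5.60 and 8.65 TPM in B6 controls and 3.61, 4.75 and 3.47 TPM in B6 CRS mice (-0.56, 95% interval -0.99 to -0.13, adjusted p = 1, limma). The groups were apart in these libraries. Rspo1, a Wnt amplifier related to Rspo2, overlapped at 3.60, 1.97 and 1.79 TPM in controls and 5.95, 4.30 and 1.82 TPM after CRS (0.48, adjusted p = 1, limma). Scnn1a was also apart, on the higher side (0.72, adjusted p = 1, limma). It reached 1 TPM in the 3 B6 CRS libraries and, of all others, in B6 control animal 2 alone. It thus met the minimum for testing through B6 CRS, and the minimum and this separation are not independent. Such separation was seen in 3 of the 34 genes (8.82%) and in 8.33% of all genes tested. Neurod6 stood at -0.59 (unadjusted p = 0.0282, adjusted p = 1, limma). Differences lay below 0 for 22 of the 34 genes, with a median of -0.14 beside 0 over all genes tested, and for 14 of the 17 deep layer genes (median -0.17). All 12 striatal markers lay above 0 in the same comparison (median 1.21, none called). With either marker level as a covariate none of the 34 genes was called in this comparison.

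In BALB/c, where striatal sums were 139 to 429 TPM in controls and 157 to 209 TPM after CRS, the median of the 34 genes was 0.05, as over all genes tested (0.05). Neurod1, a helix-loop-helix factor, was the only gene whose groups were apart, 2.94% of the 34 beside 7.39% of all genes tested. It stood at 6.57, 3.99 and 6.17 TPM in controls and 6.70, 7.28 and 7.22 TPM after CRS (0.32, adjusted p = 1, limma). Exons of Neurod1 overlap those of Cerkl on the same strand and of Gm26755 on the other. Lhx2, a LIM homeodomain factor, stood at 37.3, 30.03 and 51.3 TPM in controls and 37.9, 55.7 and 50.5 TPM after CRS (0.29, adjusted p = 1, limma). On the lower side the lowest p were those of Cplx3 (-0.63, adjusted p = 1) and Pcp4 (-0.53, adjusted p = 1), both with overlapping groups. Averaged over strains, Scnn1a (0.49), Lhx2 (0.24), Rspo2 (-0.37) and Neurod6 (-0.35) led, with adjusted p of 0.946 or more. For Scnn1a this difference and the minimum for testing, met through B6 CRS, are not independent. The intervals were wide, that of Cux2 in B6 running from -1.46 to 0.38.

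**Figure D4:**
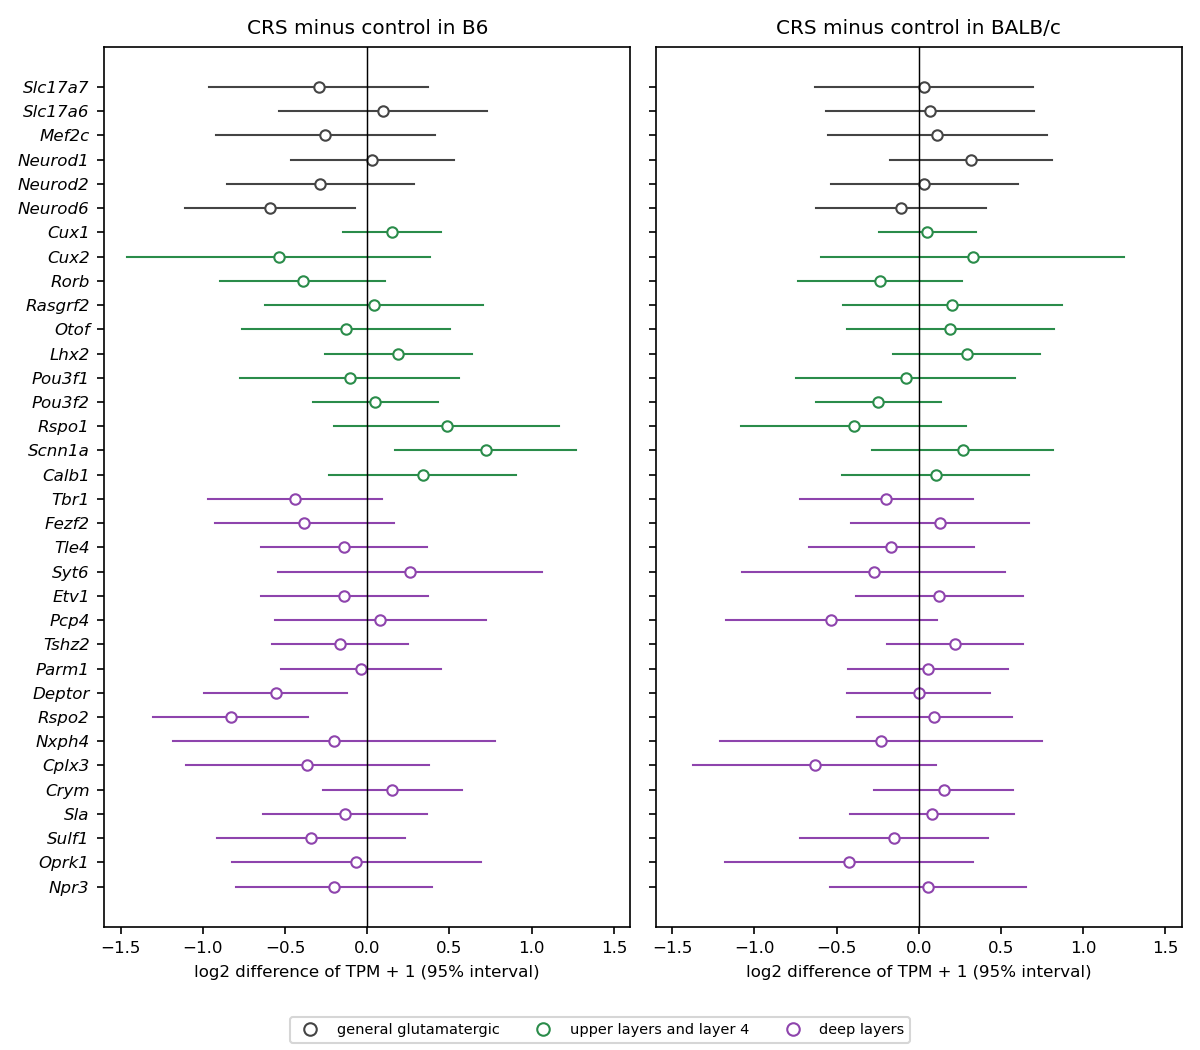
Points give the log2 difference of TPM + 1, CRS minus control, for the 34 genes in B6 (left) and BALB/c (right), with 95% intervals from limma and colours for the role. No gene is called in either strain, and 14 of the 17 deep layer genes lie below 0 in B6.

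Whether the response to CRS differed between strains was tested as the interaction, and none of the 34 genes was called (0% of all genes tested). At an unadjusted p under 0.05 there was 1 of the 34, beside 2.7% of all genes tested. It was Rspo2 (0.93, SE 0.31, unadjusted p = 0.0105, adjusted p = 1, limma), whose values lay lower after CRS in B6 and within or above the control range in BALB/c, but for CRS animal 15 just under it. Deptor (0.56), Rspo1 (-0.88) and Pcp4 (-0.61) came next by p within their direction, each with an adjusted p of 1.

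The balance of upper against deep layer genes differed between animals of the same group. The mean log2(TPM + 1) of the upper layer genes minus that of the deep layer genes ran from -1.26 in BALB/c control animal 9 to 0.01 in BALB/c control animal 10, and both of these were unrestrained mice. Animal 9 had the lowest value of its strain for 7 of the 11 upper layer genes and the highest for 7 of the 17 deep layer genes. Animal 10 had the lowest of its strain for 8 of the 17 deep layer genes. Of the BALB/c libraries, animal 9 had the highest striatal and myelin sums (429 and 3168 TPM) and animal 10 the lowest (139 and 491 TPM); their part in the balance was not tested. In B6, CRS animal 12 was lowest for 4 of the 6 general genes and control animal 9 highest for 13 of the 34. The median SD of the 34 genes over the 6 libraries of a strain, on the log2 scale, was 0.365 in B6 and 0.313 in BALB/c, beside 0.206 and 0.194 over all genes tested. For the general genes it was 0.497 in B6 and 0.203 in BALB/c. The SD was larger in B6 for 16 of the 34 genes.

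**Figure D5:**
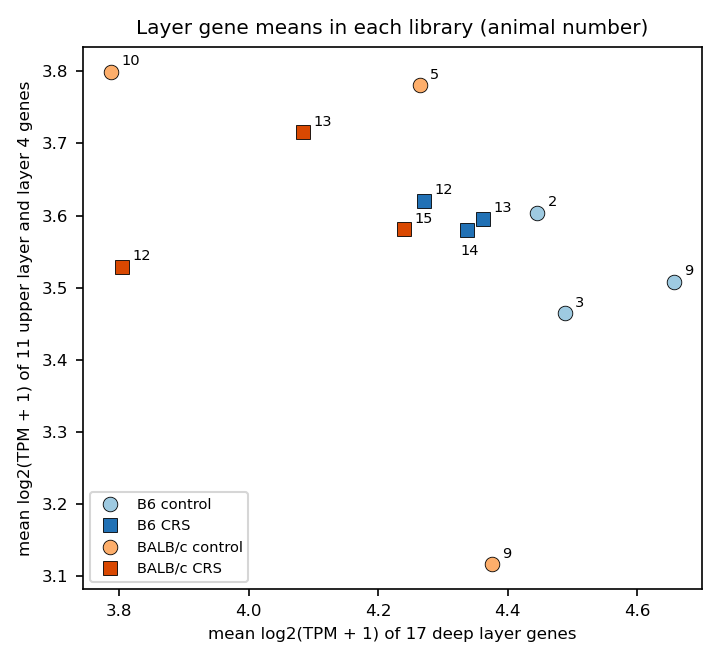
Each point is a library, placed by its mean log2(TPM + 1) over the 17 deep layer genes and over the 11 upper layer and layer 4 genes, with the animal number beside it. BALB/c control animals 9 and 10, at differences of -1.26 and 0.01, mark the extremes of the 12 libraries.

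Other genes of cortical projection neurons, 32 in number and none of them among the 34, were read in the same fits. Between strains 4 were called higher in BALB/c and 3 lower, 21.9% against 18.4% of all genes tested. By direction the shares were 12.5% higher, against 4.05%, and 9.38% lower, against 14.3%. Among the higher genes were Lmo4 (0.74), Rxfp1, a relaxin receptor (1.01), and Cck, the neuropeptide cholecystokinin (588 TPM ± 261 for B6 libraries and 1128 TPM ± 186 for BALB/c libraries, SD, n = 6). The lower genes were Bcl11b, a factor of subcerebral and striatal neurons (38.6 TPM ± 9.72 and 21.6 TPM ± 6.45), Foxp2, found in layer 6 and striatal neurons (-0.99), and Lmo3 (-0.69). Among controls none of the 32 was called, against 4.73% of all genes tested. After CRS Lmo4 and Rxfp1 were called higher, 6.25% against 2.37% of all genes tested. None was called lower after CRS, against 5.33%. For CRS none was called in either strain, against 0% of all genes tested in B6 and 0.00609% in BALB/c.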

How the data were processed

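Transcript abundances from mPFC of 12 mice were used in TPM, the unit of the whole-series table that the authors deposited. Per the submitters' processing notes, cutadapt 2.9 and Salmon were used with GRCm38. The annotation release and strand setting are not given in the sources used here. Whether sequence differences between the strains affected the levels read in BALB/c was not tested. Per the labels, about 6 Gb of paired 150 bp reads per library was the aim. TPM keeps no read counts, so the depth reached is unknown; errors are those between animals.

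TPM was summed per gene name and tested as log2(TPM + 1) with limma 3.58.1 (R 4.3.3; 4 group means, 8 residual degrees of freedom, intensity trend) and Benjamini-Hochberg adjustment over 16423 genes. The scale understates changes of low genes. The script was tested on simulated data. Genes and lists were chosen with earlier results of these data known. Values per library were given for genes called in any comparison or, where none was called, the 2 of lowest p in each direction; Slc17a7 was added after its values were seen. Of the other lists, called genes were named, at most the 4 with the largest change per list and comparison, the marker lists in the average over treatments only; Lmo4, Bcl11b and Lmo3 in that average were named outside this rule, after their values were seen. Some called genes of these lists are not reported here. Alternatives were other pseudocounts, filters, scaling, variance prior, marker covariates, a block for shared animal numbers and leaving out libraries. Gene positions are from GENCODE M21 (GRCm38), promoters from RefSeq (GRCm38.p6). Strain, treatment and animal number came from the titles. Equal numbers in different strains are different mice. The correlations of their deviations from group means, over 16423 genes, were -0.242, -0.029 and -0.036 for animals 9, 12 and 13. With 3 libraries per group, these values cannot show whether equal numbers share a batch. Pairing was left out of the main fit.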

Additional observations from a re-analysis of the deposited data

How the results depend on the processing

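None of the 34 genes was called for CRS in B6, in BALB/c, in the average or in the interaction under any alternative run. In those fits at most 0.0228% of all genes were called. Below, a share in brackets is that of all genes called in the same fit. Between strains over both treatments, the 12 calls became 8 to 15 when a library was left out (12.1% to 23.2%). They became 8 with no filter (8.65%), where Cplx3, Cux2, Mef2c and Pcp4 were lost. With the striatal covariate 1 was called (3.09%) and with the myelin covariate 0 (2.27%). Without both B6 control 2 and B6 CRS 12, an alternative chosen after seeing the data, 6 were called (9.93%). Among controls the 2 calls became 1 to 3 when a library was left out (2.62% to 8.52%). They became 1 with a pseudocount of 5 (4.5%), with no filter (2.17%) and with a mean of at least 5 TPM (3.9%). They were also 1 with median-of-ratios scaling (4.44%), with the striatal covariate (3.2%) and without both libraries (2.75%), and 0 with the myelin covariate (1.73%). After CRS the 7 calls became 1 to 11 when a library was left out (3.32% to 11.4%). They became 2 with no filter (3.15%) and 4 without both libraries (4.74%). With the striatal covariate (1.41%) or the myelin covariate (1.56%) they became 0. With the striatal covariate Syt6 after CRS was 0.037, and Mef2c and Cux2 over both treatments were -0.16 and -0.028, their signs reversed. The cause was not tested. The median of all genes between strains among controls was -0.10, and 0.00 after median-of-ratios scaling. TPM keeps no read counts, so no counting error can be given for low genes such as Scnn1a.

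With the replicate block for animal numbers 9, 12 and 13, 12 genes were called over both treatments, against 14.9% of all genes. Of these 12, 10 were shared with the fit without the block. Among controls 2 were called, against 3.44% of all genes, and after CRS 4, against 4.57%. Rspo1 for CRS in B6 was -0.10, its sign reversed.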

Other observations

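The 34 genes had 182 rows in the deposited table, apparently 1 per transcript, of which 92 were tested among 46000 rows. Between strains over both treatments 11 rows of 9 genes were called, 12% against 6.05% of all rows, and no gene had rows called in both directions. In 3 of the 11, the rows of Scnn1a, Otof and the first of Sla given here, 1 strain stayed under 1 TPM throughout. They met the minimum for testing only through the strain in which they were high. The called row of Oprk1 also met it only through B6, with 3.66 TPM ± 1.23 in B6 and 0.852 TPM ± 0.424 in BALB/c. For all these rows the minimum and the difference are not independent. All 6 BALB/c libraries list a row of Scnn1a at 0, which ranged from 0 to 2.29 TPM in B6. A row of Sla had means of 2.03 TPM ± 0.396 for B6 and 0.195 TPM ± 0.325 for BALB/c (SD, n = 6), and another 9.69 TPM ± 3.79 and 3.27 TPM ± 2.39. Both rows of Rspo2 that were called were higher in BALB/c, at 7.76 TPM ± 3.69 and 13.8 TPM ± 2.91 for the more abundant. A row of Otof, whose summed level was not called, averaged 0.164 TPM ± 0.134 in B6 and 1.07 TPM ± 0.499 in BALB/c (log2 difference 0.81, SE 0.20, adjusted p = 0.0406, limma).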
